A study of Bos taurus with 24 samples.

Results

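KRT8, KRT18 and VIM, which encode keratin 8, keratin 18 and vimentin, are 3 of the 11306 genes with values in the bovine oocyte RNA-seq table. They were taken by symbol, and they were chosen by their levels in these same libraries, in which a few libraries stood far above the rest. Their levels are therefore given as a description, with no test.

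Intermediate filaments are rope-like polymers that give cells mechanical strength and position the nucleus and organelles. Keratins form obligate pairs of a type I and a type II chain, and keratin 18 (type I) pairs with keratin 8 (type II) in simple epithelia and in the trophectoderm, the first epithelium of the embryo. Vimentin, a type III chain that assembles with itself, is typical of mesenchymal cells, leukocytes and ovarian granulosa cells, the lineage of the cumulus cells that surround the oocyte.

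The study asked how seasonal heat affects the oocytes of adult Bos taurus cows (crossbred beef animals of Angus type, neither lactating nor pregnant) that were managed alike in both seasons. The 4 groups of 6 libraries were spring GV and summer GV (germinal vesicle oocytes, immature, collected in May or July) and spring MII and summer MII (metaphase II oocytes of the same collection months, matured in vitro with FSH and serum). According to the methods, cumulus cells were removed with hyaluronidase and vortexing, and 4 oocytes of 1 animal were pooled for each library, whereas the sample labels speak of single cells. The same herd gave oocytes in both seasons, and the labels do not say which cow gave which library, so libraries of different groups may share a cow. Libraries are named here by their group and replicate number.

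The reads recovered from the deposited values ranged from 0.325 M in spring GV 6 to 28.2 M in summer GV 5, with a median of 3.84 M (M stands for 1000000 reads). Spring GV 6, spring MII 6 (1.03 M) and summer GV 2 (2.54 M) had the fewest. The same libraries had the lowest mapping rates in the study's alignment summary. Spring GV 3 stood apart by its somatic cell transcripts, given with VIM. Of 22 listed oocyte markers, 16 were found in the table, and their summed level lay between 958 FPKM and 2450 FPKM in every library. FPKM scales the reads of a gene by its length and by the total of the library, and in this table the length is the whole gene span, so levels are compared between libraries and not between genes.

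In UMD3.1.1, KRT18 lies on chromosome 5 from 27171925 to 27175576 on the minus strand, with EIF4B and KRT78 as its neighbours in the table. VIM lies on chromosome 13 from 31945012 to 31952942 on the plus strand, between TRDMT1 and STAM. The KRT8 entry lies on chromosome 10 from 73627766 to 73629542 on the minus strand, between TRMT5 and PRKCH. RefSeq for ARS-UCD2.0, a later assembly, places KRT8 beside KRT18, between KRT18 and KRT78. The values given here as KRT8 are thus those of a 1777 bp entry away from the KRT18 neighbourhood. Keratin 8 is known for processed gene copies in mammalian genomes, and reads of near-identical copies could not be told apart here.

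KRT18 was low in most libraries and high in 5 of 24. In spring GV oocytes its level ranged from 0.149 FPKM to 392 FPKM with a median of 1.12 FPKM. Summer GV oocytes ranged from 0.311 FPKM to 34.4 FPKM, with a median of 0.963 FPKM. In each of these groups a single library made the upper end, spring GV 6 and summer GV 2. Spring MII oocytes ranged from 0.523 FPKM to 70.8 FPKM with a median of 1.08 FPKM, and spring MII 6 was the highest. Summer MII oocytes ranged from 0.533 FPKM to 16.6 FPKM with a median of 1.54 FPKM, and here 2 libraries were high, summer MII 6 at 16.6 FPKM and summer MII 4 at 8.93 FPKM. The other 19 libraries lay between 0.149 FPKM and 2.40 FPKM with a median of 0.862 FPKM, so the groups overlapped throughout.

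The lead of the high libraries was large against the rest of their own group. Spring GV 6 was 499 times the median of the other 5 spring GV libraries. Spring MII 6 was 76.1 times, summer GV 2 was 50.5 times, summer MII 6 was 15.8 times and summer MII 4 was 8.50 times the median of the other 5 libraries of its group. None of these leads rested on a few reads. KRT18 had 840 reads in spring GV 6, 512 in summer GV 2, 400 in spring MII 6, 341 in summer MII 6 and 192 in summer MII 4, against 4 to 152 reads in the other 19 libraries. In bulk samples such as these pools, fewer cells of a type and less RNA per cell cannot be told apart.

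**Figure D1:**
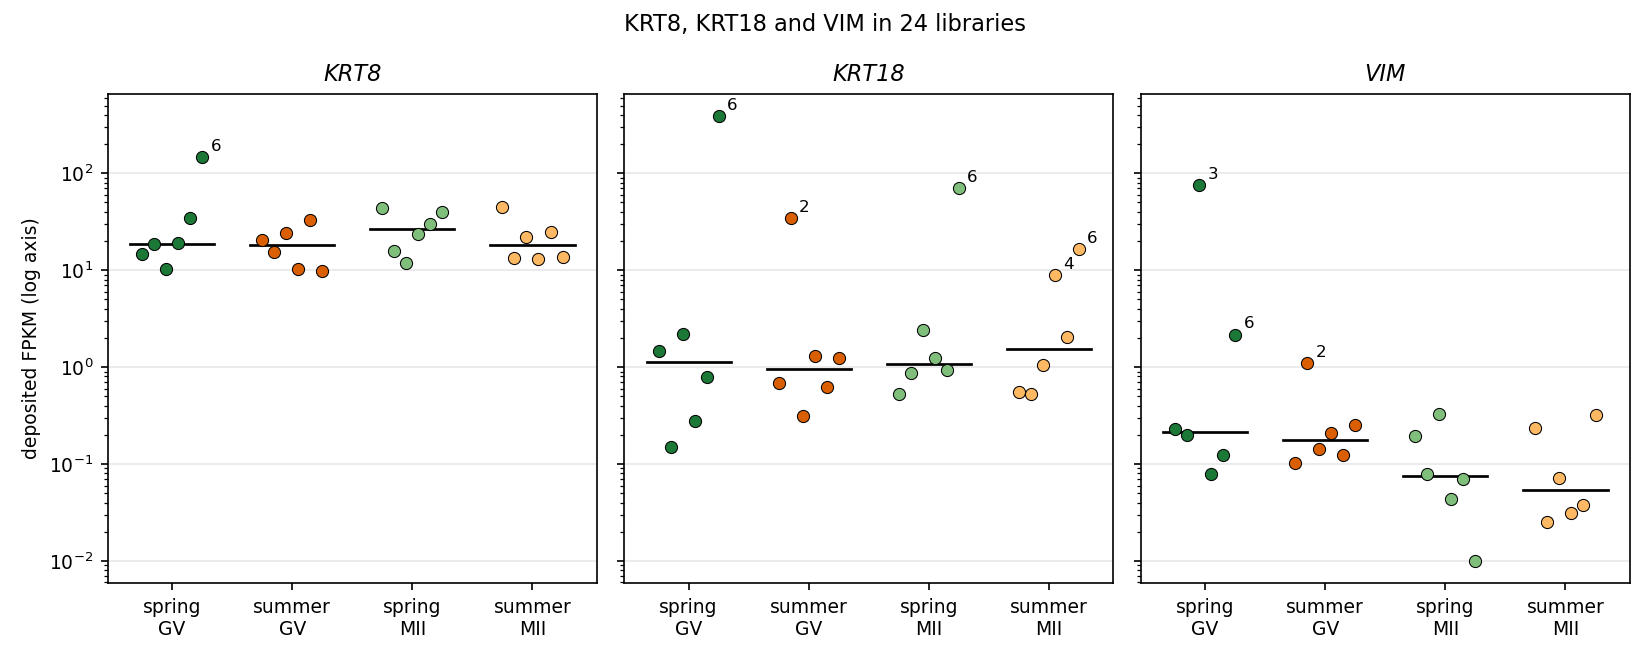
Deposited FPKM of KRT8, KRT18 and VIM on a log axis, 1 point per library and 6 libraries per group, with the group median as a line; numbers mark the replicates that stand apart, and heights should not be compared between genes. KRT18 was high in 5 libraries (8.93 to 392 FPKM), VIM in spring GV 3 (75.7 FPKM), and KRT8 was highest in spring GV 6 (146 FPKM).

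The order of KRT18 followed the reads recovered per library at its upper end. Scaled to 1000000 recovered reads (RPM), KRT18 was at 2587 RPM in spring GV 6 (95% interval 2415 to 2768, exact Poisson limits that cover counting error only). It was at 389 RPM in spring MII 6 and at 201 RPM in summer GV 2. These 3 libraries held the highest KRT18 levels and were also the 3 with the fewest reads, in the same order. The next 2, summer MII 6 with 101 RPM and summer MII 4 with 57.4 RPM, ranked 8 and 7 from the lowest in depth, with 3.37 M and 3.35 M reads. Spring GV 3, the next in depth after the first 3 with 2.69 M reads, had KRT18 at 19.0 RPM, and spring GV 2, with 3.25 M reads, had the lowest value of all 24 libraries, 1.23 RPM. Over the 24 libraries, Pearson's r between KRT18 on the log2(FPKM + 1) scale and log10 of the recovered reads was -0.77 (Spearman's rho -0.61). It was -0.83 after subtraction of the group means and -0.74 without the 2 libraries farthest from the median depth, spring GV 6 and summer GV 5. Over the 19 libraries low in KRT18, r was -0.30 and rho -0.34. Summer MII 6 also had a low share of genes with reads (80.2%), with only spring MII 6 (72.1%) and spring GV 6 (77.3%) below it. These correlations are a description. The part of depth, mapping or RNA quality in the KRT18 levels was not tested.

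**Figure D2:**
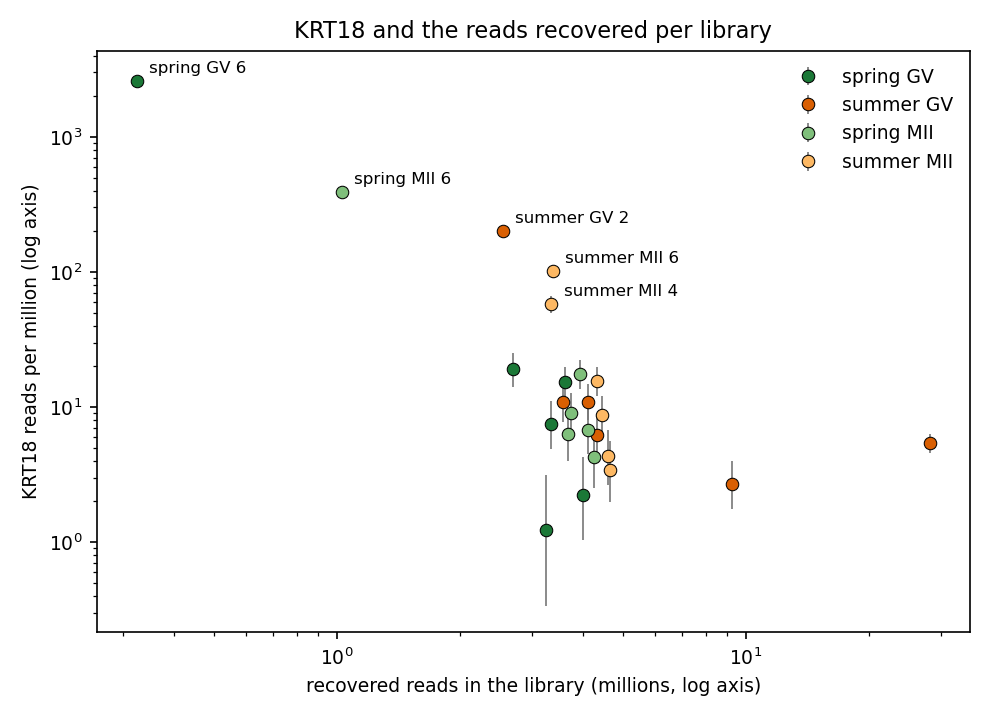
KRT18 in reads per M recovered reads (RPM) against the reads recovered in each library, both on log axes, with 95% Poisson limits as bars and the 5 highest libraries named. The 3 libraries with the fewest reads (0.325, 1.03 and 2.54 M) had the most KRT18, and the libraries between 3 and 5 M reads spread from 1.23 to 101 RPM.

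Cumulus and granulosa cell markers (spring GV 3 aside) and regulators of filaments had higher summed levels in the KRT18-high libraries. Sums of the other listed gene groups overlapped those of the rest. Over the 26 listed cumulus and granulosa cell markers in the table, the summed level was 54.6 FPKM to 82.1 FPKM in those 5 libraries. It was 15.2 FPKM to 40.8 FPKM in 18 others, with spring GV 3 at 170 FPKM. Outside spring GV 3, most of this FPKM sum was STAR, at 34.9 FPKM to 64.3 FPKM against 9.36 FPKM to 32.0 FPKM. STAR carries cholesterol into mitochondria for steroid synthesis, and its weight in the sum is also set by its gene span. Without STAR the sums were 13.9 FPKM to 24.7 FPKM in the 5 libraries and 5.04 FPKM to 11.9 FPKM in the 18. Of the 20 cumulus markers that passed the filter, 3 had their highest level in spring GV 6, 3 in spring MII 6, 1 in summer GV 2, 1 in summer MII 4 and none in summer MII 6, while 19.6%, 15.5%, 16.6%, 2.46% and 5.16% of all genes tested had theirs in these libraries. The 28 regulators of filaments in the table, a list with no cell type in view, were higher there too, with a mean log2(FPKM + 1) of 2.52 to 2.80 in the 5 libraries and 1.89 to 2.40 in the other 19. By group, the cumulus marker sums with STAR ranged from 24.4 FPKM to 170 FPKM in spring GV, 24.3 FPKM to 82.1 FPKM in summer GV, 20.6 FPKM to 64.7 FPKM in spring MII and 15.2 FPKM to 59.6 FPKM in summer MII oocytes. Single markers were not raised alike in the KRT18-high libraries. The anti-Müllerian hormone gene AMH was at 0.0692 FPKM or less there, but it was at the lowest value in 15 of all 24 libraries. The FSH receptor FSHR was at 0.0188 FPKM or less, which only spring GV 3 exceeded, and it was at the lowest value in 21 of all 24 libraries. These low values of AMH and FSHR show no direction. HAS2 (3.99 FPKM) and NR2F2 (7.76 FPKM) were highest in spring MII 6, PTGS2 (8.68 FPKM) in summer MII 4 and SERPINE2 (2.10 FPKM) in spring GV 6. These names were picked after their values were seen. The 15 listed markers of other somatic cells had sums of 19.9 FPKM to 34.2 FPKM in the 5 libraries, inside the 11.7 FPKM to 67.7 FPKM of the rest. The part of these cells in the KRT18 levels was not tested.

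Other filament genes did not follow KRT18 through the same 5 libraries. KRT7, another keratin of simple epithelia, was at 5.04 FPKM in spring GV 6 and between 0.01 FPKM and 0.335 FPKM elsewhere. Desmoplakin (DSP), which ties keratin filaments to desmosomes, was at 2.0 FPKM in spring GV 6 and at most 0.231 FPKM elsewhere. KRT7 and DSP fall outside the rule for named genes and were picked after their values were seen. KRT19, a type I keratin of simple epithelia, was at 19.1 FPKM in spring GV 6, below the spring GV median of 27.3 FPKM. NEFL, the neurofilament light chain, was at 24.8 FPKM in spring GV 6, 50.2 FPKM in spring MII 6, 18.5 FPKM in summer GV 2 and 17.4 FPKM in summer MII 4, but at 5.21 FPKM in summer MII 6 and at 18.1 FPKM in summer GV 4, which was not high in KRT18. In spring GV 6, 7 of the 26 other family members that passed the filter had their highest level, against 19.6% of all genes tested.

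The 4 genes with the most similar levels to KRT18 over the 24 libraries, among 3664 genes with a mean of at least 1 FPKM, were DOC2A, MIF, APH1A and SRSF9. Pearson's r on log2(FPKM + 1) was 0.978 for DOC2A, a calcium sensor of vesicle release, and 0.970 for MIF, a cytokine. It was 0.969 for APH1A, a subunit of gamma-secretase, and 0.969 for SRSF9, a splicing factor. After subtraction of the group means, r was 0.969 to 0.981. These values describe the 5 high libraries: in the other 19, r fell to between 0.460 (APH1A) and 0.630 (DOC2A). DOC2A, at most 0.831 FPKM in those 19, reached the required mean of 1 FPKM only through the high libraries. MIF, for example, was at 366 FPKM in spring GV 6, 76.5 FPKM in spring MII 6 and 23.8 FPKM in summer GV 2, and between 0.239 FPKM and 5.20 FPKM in the 19 libraries low in KRT18.

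The KRT8 entry was detected in every library and varied less than KRT18. In spring GV oocytes it ranged from 10.2 FPKM to 146 FPKM with a median of 18.7 FPKM. The summer GV range was 9.76 FPKM to 32.9 FPKM, around a median of 18.0 FPKM. For spring MII oocytes the range was 11.9 FPKM to 43.7 FPKM (median 26.9 FPKM), and for summer MII oocytes 13.1 FPKM to 44.5 FPKM (median 18.0 FPKM). The group medians stood in the order spring MII, spring GV, summer GV and summer MII, and every pair of groups overlapped. The mean was 27.5 ± 12.8 FPKM (SD, n = 6) in spring MII and 21.9 ± 12.1 FPKM (SD, n = 6) in summer MII oocytes.

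Spring GV 6 again held the highest KRT8 level, 7.87 times the median of the other 5 spring GV libraries, but from 152 reads, fewer than the median of 271 reads in those 5. This was 468 RPM (95% Poisson interval 397 to 549), against 40.9 RPM to 175 RPM in the other 23 libraries. The remaining KRT18-high libraries were not high in KRT8: summer GV 2 was at 15.3 FPKM, summer MII 6 at 13.8 FPKM and summer MII 4 at 13.1 FPKM, at or below the medians of their groups, while spring MII 6 was at 39.6 FPKM, second in its group. Over the 24 libraries Pearson's r between KRT8 and KRT18 was 0.414 and Spearman's rho was -0.210, and without the 2 libraries farthest from the median of KRT8 (spring GV 6 and summer MII 1) r was -0.03. KRT18 and the KRT8 entry were thus both highest in spring GV 6, where 19.6% of all genes tested had their highest level. The correlation is given as a description.

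The genes most similar to KRT8 were PFN1 (r = 0.768), ZNF703 (0.762), TRNAU1AP (0.746), ARPC3 (0.734) and HSPA2 (0.721). PFN1 (profilin) and ARPC3 (a subunit of the Arp2/3 complex) act in actin assembly, and HSPA2 is a heat shock protein of the germ line. ZNF703 is a transcriptional repressor, and TRNAU1AP binds the selenocysteine tRNA. All 5 had their highest level in spring GV 6, and without it r was 0.362 (HSPA2) to 0.633 (PFN1) over 23 libraries. PFN1 was at 331 FPKM in spring GV 6 and at 147 FPKM and 140 FPKM in spring MII 1 and summer MII 1, the libraries in which KRT8 was highest among MII oocytes.

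By the replicate number in the labels, KRT8 was similar in some sets of 4 libraries. Number 5 gave 34.3 FPKM, 32.9 FPKM, 30.3 FPKM and 24.7 FPKM in spring GV, summer GV, spring MII and summer MII oocytes, and number 2 gave 18.5 FPKM, 15.3 FPKM, 15.7 FPKM and 13.3 FPKM. Number 1 gave 43.7 FPKM and 44.5 FPKM in the MII groups but 14.7 FPKM and 20.7 FPKM in the GV groups. Number 6 spread 14.9-fold, from 9.76 FPKM in summer GV to 146 FPKM in spring GV oocytes. For KRT18, number 6 was high in 3 of 4 groups, and summer GV 6 was at 1.24 FPKM. The labels do not say what a number stands for, and no test was made of this.

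**Figure D3:**
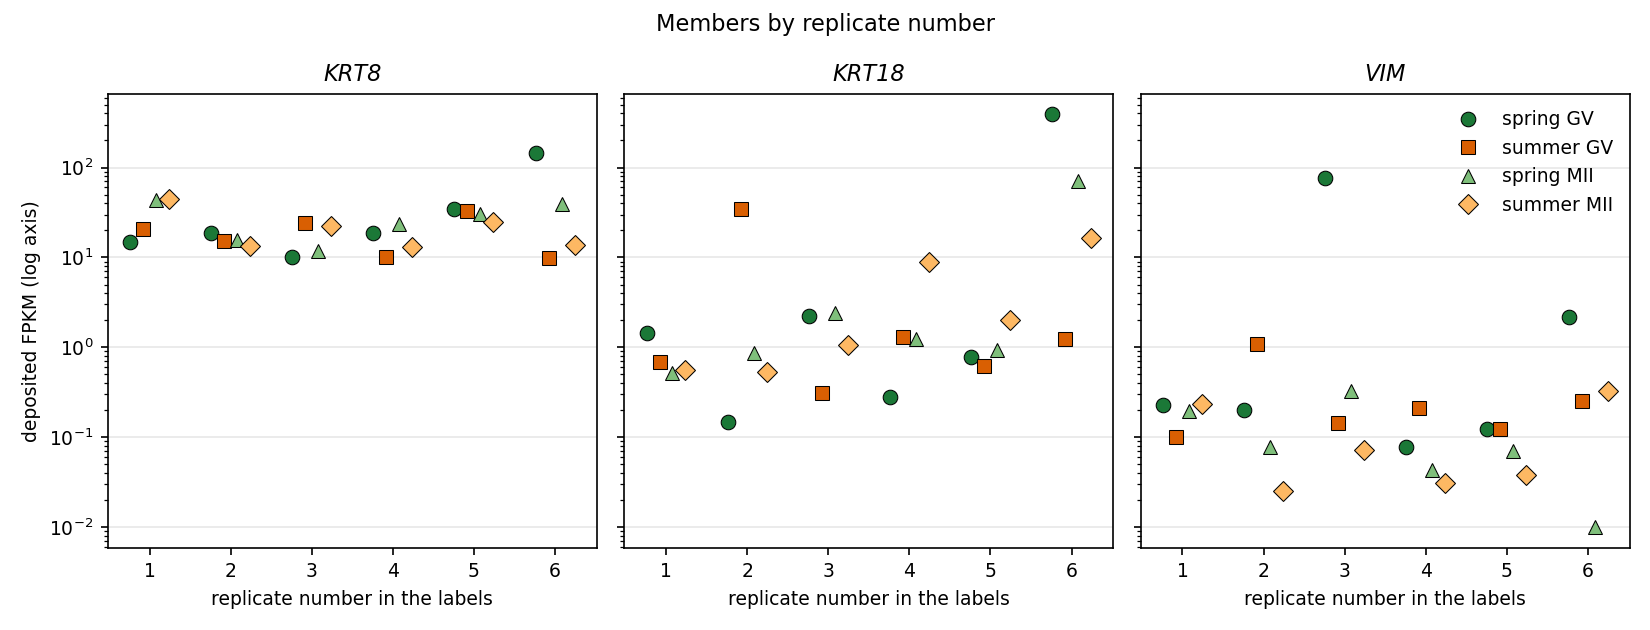
Deposited FPKM of KRT8, KRT18 and VIM on a log axis by the replicate number in the labels, 1 point per library and a marker per group, shifted sideways for legibility. KRT8 at number 5 lay between 24.7 and 34.3 FPKM in the 4 groups, and KRT18 at number 6 was 392, 70.8 and 16.6 FPKM in 3 groups and 1.24 FPKM in summer GV.

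VIM was near the lower limit of the table in 21 of 24 libraries and high in 1. Spring GV oocytes ranged from 0.0784 FPKM to 75.7 FPKM with a median of 0.215 FPKM, and the highest library was spring GV 3. Summer GV oocytes ranged from 0.102 FPKM to 1.09 FPKM with a median of 0.176 FPKM. The MII oocytes lay lower still, from 0.01 FPKM to 0.328 FPKM (median 0.0744 FPKM) in spring and from 0.0250 FPKM to 0.324 FPKM (median 0.0546 FPKM) in summer. The medians of the GV groups were above those of the MII groups, and the ranges overlapped in each comparison. A value of 0.01 FPKM is the lowest in the table and stands for 0 reads, as in spring MII 6, where 0 of 1.03 M reads was taken to allow up to 3 reads, or 2.92 VIM RPM (the two-sided 95% Poisson limit is 3.59 RPM).

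The level in spring GV 3 rested on 3791 reads, 375 times the median FPKM of the other 5 spring GV libraries. Next came spring GV 6 at 2.16 FPKM from 10 reads and summer GV 2 at 1.09 FPKM from 35 reads. The other 21 libraries held 0 to 61 VIM reads. Differences among them were mostly not resolved at this depth: summer MII 2 and summer MII 4 each had 1 read, with two-sided 95% Poisson limits of 0.0253 to 5.57 reads.

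VIM was most similar in level to INHA (r = 0.978), TNNI3 (0.965), APOA1 (0.962), SRGN (0.961) and HSD17B1 (0.909). INHA encodes the inhibin alpha chain and HSD17B1 an estrogen-making dehydrogenase, both products of granulosa cells. SRGN encodes serglycin, a granule proteoglycan, TNNI3 a cardiac troponin and APOA1 the main protein of high-density lipoprotein. Each of the 5 had its highest level in spring GV 3: 37.2 FPKM for INHA, 32.9 FPKM for TNNI3, 29.3 FPKM for APOA1, 127 FPKM for SRGN and 39.5 FPKM for HSD17B1. Over the 21 libraries low in VIM, r was 0.242 (SRGN) to 0.632 (TNNI3), so the likeness rested on spring GV 3 and the next 2. In those 21, INHA was at most 0.817 FPKM, TNNI3 at most 0.699 FPKM, and the median of APOA1 was 0.01 FPKM. Such genes reached the required mean of 1 FPKM through the library in which VIM was high. The 5 names therefore describe spring GV 3 and are no separate evidence on VIM.

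**Figure D4:**
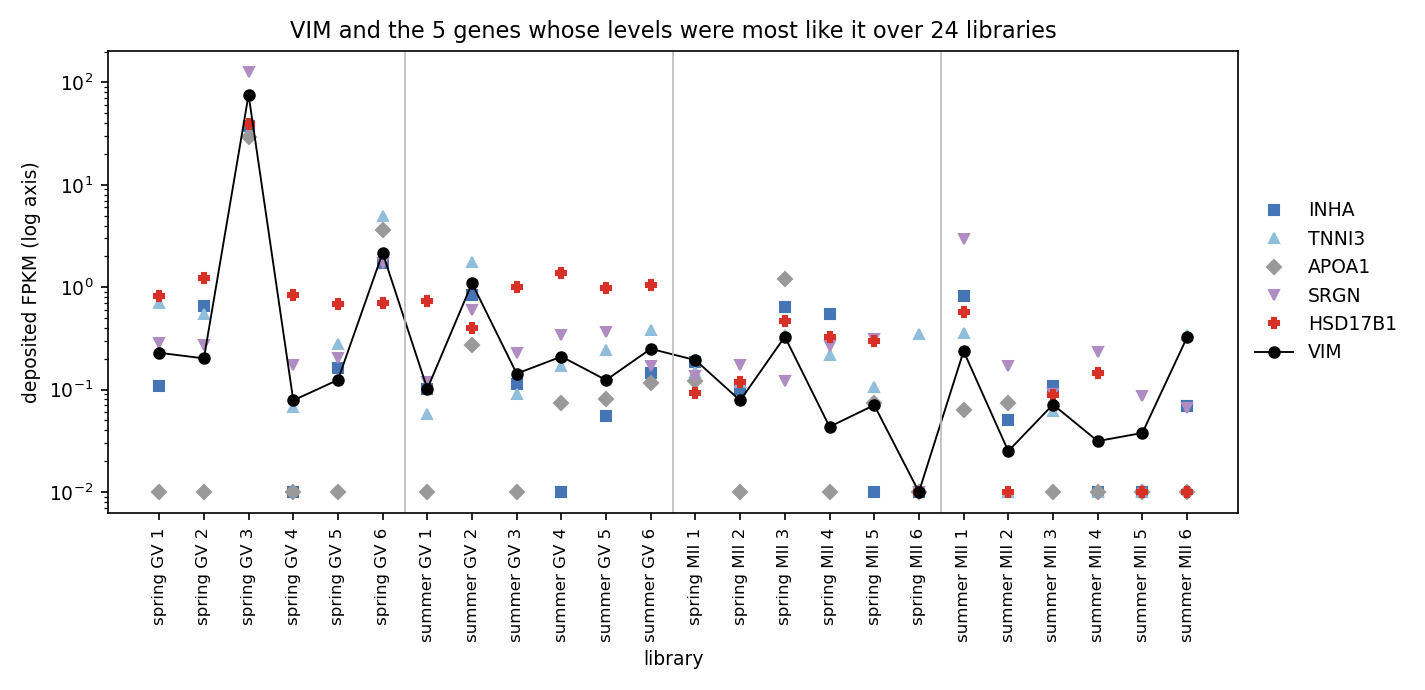
Deposited FPKM on a log axis of VIM (black, joined to guide the eye) and of INHA, TNNI3, APOA1, SRGN and HSD17B1 in the 24 libraries, grouped by stage and season; 0.01 is the lowest value in the table. All 6 genes peaked in spring GV 3, with VIM at 75.7 FPKM, and VIM was at 2.16 FPKM or less elsewhere.

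Spring GV 3 also led in cumulus and granulosa cell markers. Of the 20 markers that passed the filter, 10 had their highest level in this library, against 5.19% of all genes tested. FST (follistatin) was at 20.3 FPKM and at most 0.553 FPKM elsewhere, AMH at 13.4 FPKM and at most 0.363 FPKM elsewhere, and the gap junction gene GJA1 at 15.6 FPKM and at most 3.98 FPKM elsewhere. The steroid enzyme CYP11A1 was at 12 FPKM, with 2.5 FPKM as the next highest. FST, AMH, GJA1 and CYP11A1 are outside the rule for named genes and are given because VIM is read beside them. Not every marker was raised: STAR was at 21.4 FPKM, close to the median of 19.4 FPKM in the other 23 libraries. AMHR2, AREG, NR5A1 and TNFAIP6 were at the lowest value, which was also their median in the other 23, so they show no direction. FSHR (0.0352 FPKM, at most 0.0188 FPKM elsewhere) and CYP19A1 (0.0531 FPKM, median 0.0123 FPKM elsewhere) were higher here but near the lower limit of the table. Among markers of other somatic cells, the haemoglobin alpha gene HBA was at 20.5 FPKM in spring GV 3 and at most 9.12 FPKM elsewhere. KRT18 in this library was 2.22 FPKM and KRT8 was 10.2 FPKM, the lowest KRT8 level of its group. The part of remaining cumulus cells in the VIM level was not tested.

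Between seasons and stages, the differences of the 3 genes turned largely on single libraries. Values are differences of group means on the log2(FPKM + 1) scale with their standard error (SE, 6 against 6 libraries), which understates the change of low genes. Summer against spring GV oocytes gave -0.54 for KRT8 (SE 0.549), -0.61 for KRT18 (SE 1.32) and -1.10 for VIM (SE 0.881). Summer against spring MII oocytes gave -0.31 for KRT8 (SE 0.377), -0.03 for KRT18 (SE 0.967) and -0.00053 for VIM (SE 0.0815). The largest of these 6 relative to its error was that of VIM in GV oocytes, at 1.25 times the standard error.

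Between stages, VIM had the largest differences relative to their error. In spring, MII against GV oocytes gave -0.04 for KRT8 (SE 0.557), -0.24 for KRT18 (SE 1.38) and -1.30 for VIM (SE 0.873). In summer they gave 0.19 for KRT8 (SE 0.362), 0.33 for KRT18 (SE 0.854) and -0.20 for VIM (SE 0.143). VIM was lower in MII oocytes in both seasons by means and by medians, with overlapping ranges, and its differences were 1.49 times the standard error in spring and 1.42 times in summer. On the scale of log2(RPM + 1) from the recovered reads, they were larger, -2.64 (SE 1.25) in spring and -1.11 (SE 0.482) in summer, or 2.11 and 2.30 times the standard error, and both exceeded the SD between libraries (2.56 and 0.910). No other difference of the 3 genes exceeded its SD on either scale. The RPM scale was chosen after the data were seen, and single libraries were not left out on it. Its spring value includes spring GV 3, at 1410 RPM against a median of 3.69 RPM in the other 5 spring GV libraries. The ratios to the standard error are a description and not a test. The 4 comparisons share groups in pairs, so they are not independent of one another.

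Leaving out single libraries turned the sign for KRT18 in all 4 comparisons. Without spring GV 6 the GV season difference of KRT18 became 0.69, and without summer GV 2 it became -1.32. The MII season difference became 0.81 without spring MII 6 and -0.48 without summer MII 6. The spring stage difference of KRT18 became 1.05 without spring GV 6 and -1.09 without spring MII 6, and the summer one 1.05 without summer GV 2 and -0.12 without summer MII 6. For VIM, leaving out spring GV 3 took the GV season difference from -1.10 to -0.14 and the spring stage difference from -1.30 to -0.34. For KRT8, leaving out spring GV 6 took the GV season difference from -0.54 to -0.05 and the spring stage difference from -0.04 to 0.45. Without the 3 libraries of lowest mapping, the GV season differences were -0.02 for KRT8, -0.03 for KRT18 and -1.20 for VIM, and the last was 0.0096 with spring GV 3 left out too.

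**Figure D5:**
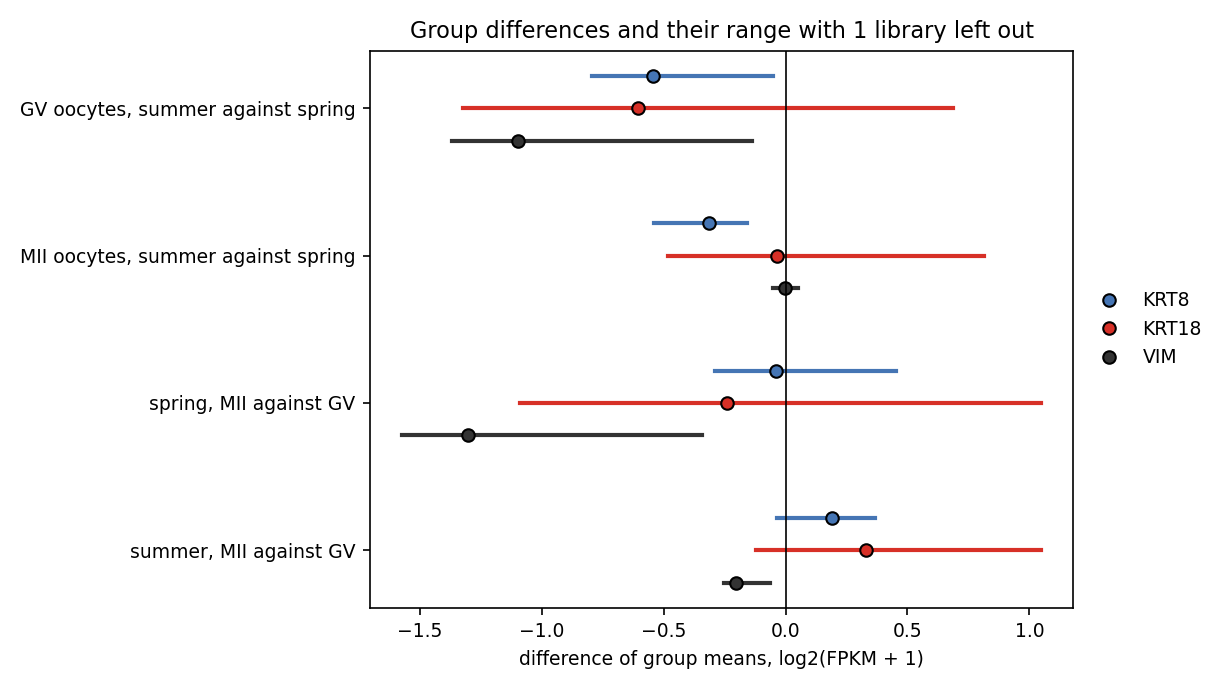
Differences of group means on the log2(FPKM + 1) scale for KRT8, KRT18 and VIM in the 4 comparisons; points use all 12 libraries of a comparison and lines span the values with each of the 12 left out in turn. The lines of KRT18 cross 0 in all 4 comparisons, from -1.32 to 0.69 for GV oocytes in summer against spring.

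Genes around the filaments were tested. Their lists were drawn up with earlier results of these data known, which limits the p-values and shares given here. The genes themselves were not chosen by the members' levels. They comprised 26 other filament chains, 12 linkers that anchor filaments to junctions and the nuclear envelope, and 25 regulators (kinases, phosphatases, 14-3-3 proteins, chaperones and caspases that act on filaments), all over 0.1 FPKM in at least 1 library. Calls used the study's cut-offs, a p under 0.05 before adjustment together with a change of more than 2-fold. The p came from limma and the change from the log2(FPKM + 1) scale, in place of the Partek test of the authors. The study reported many more season genes in GV and in MII oocytes, so the shares called here are not those of its test. In GV oocytes of summer against spring, none of the 63 was called, and none had an unadjusted limma p under 0.05, where 0.0315% of all 9526 genes were called. In MII oocytes of summer against spring, none of the 63 was called either, against 0.042% of all genes. There, 2 (AURKA and KRT5, the latter named after its value was seen) had an unadjusted limma p under 0.05, both with lower means in summer. With so few calls among all genes, a list of 63 without a call says little about the pathway. The share of all genes with an unadjusted p under 0.05 was not taken, so nothing is read from those counts.

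Between stages, genes of the pathway were called in both directions. In spring, 11 of 63 genes (17.5%) were called in MII against GV oocytes, against 11.8% of all genes. Of these, 4 were higher, against 3.57% of all genes, and 7 were lower, against 8.25%. In summer, 10 of 63 (15.9%) were called, against 11.5% of all genes, with 2 higher and 8 lower against 2.2% and 9.26%. The median log2 difference of the 63 was -0.03 in spring and -0.02 in summer, and over all genes it was -0.03 and -0.02.

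Among the 26 filament chains, 2 were called in spring and 3 in summer, all lower in MII oocytes, where 8.25% and 9.26% of all genes were called lower. IFFO1, a nuclear filament chain of the lamina, fell from 3.1 ± 1.98 FPKM to 0.366 ± 0.256 FPKM in spring (SD, n = 6, limma adjusted p = 0.00368) and from 3.49 ± 2.11 FPKM to 0.601 ± 0.324 FPKM in summer (limma adjusted p = 0.0012). The groups did not overlap in either season, but the share of all genes without overlap was not taken, so nothing is read from this. KRT19 fell from 29.0 ± 20 FPKM to 6.69 ± 3.5 FPKM in spring (limma adjusted p = 0.0172) and from 21.7 ± 7.80 FPKM to 7.10 ± 4.85 FPKM in summer (limma adjusted p = 0.0119). LMNA, the A-type lamin, fell in summer from 1.59 ± 0.869 FPKM to 0.191 ± 0.123 FPKM (limma adjusted p = 0.000898), and in spring its mean difference had the same direction without passing the fold threshold. Neither the KRT8 entry nor KRT18 showed such a fall. KRT19, which can also pair with keratin 8, had its highest level in spring GV 2, where KRT18 was lowest.

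Of the 12 linkers, 1 was called in spring and none in summer, where 11.8% and 11.5% of all genes were called, a count too small to set apart from that share. EMD (emerin, of the inner nuclear membrane) and PNN (pinin, first described at desmosomes and now known as a splicing protein) were called in neither season, with group medians of 23.9 FPKM to 29.4 FPKM for EMD and 6.04 FPKM to 18.7 FPKM for PNN. FBF1, a keratin-binding protein of cilia and junctions, was the only linker called, lower in spring MII oocytes at 0.307 ± 0.123 FPKM against 1.97 ± 1.64 FPKM (SD, n = 6, limma adjusted p = 0.0313). In summer FBF1 had an unadjusted limma p under 0.05 in the same direction.

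Regulators held most of the pathway's calls, 8 of 25 in spring and 7 of 25 in summer, against 11.8% and 11.5% of all genes. Only 3665 of all genes had a mean of at least 1 FPKM, and log2(FPKM + 1) understates changes of low genes. The share of all genes is therefore not one of genes at like levels. The 14-3-3 gene YWHAH, with a mean of 57.7 FPKM over the 24 libraries, was called in no comparison. AURKA, a kinase of spindle assembly, rose in spring from 96.7 ± 32.8 FPKM to 204 ± 18.1 FPKM (SD, n = 6, limma adjusted p = 0.0049). CDK1 and PLK1, kinases of cell division that phosphorylate vimentin, were called lower in MII oocytes in both seasons. The phosphatase chains PPP1CA and PPP1CB went opposite ways in both seasons, PPP1CA lower and PPP1CB higher in MII oocytes. YWHAB, of the 14-3-3 family that binds phosphorylated keratin 18 and vimentin, rose in spring from 4.18 ± 3.51 FPKM to 10.7 ± 3.23 FPKM (limma adjusted p = 0.0122), and CASP6, a caspase that cuts keratin 18 and vimentin, rose in summer from 9.28 ± 1.62 FPKM to 24.4 ± 11.2 FPKM (limma adjusted p = 0.0036). HSPA8, a constitutive heat shock chaperone, fell in summer from 94.4 ± 36.1 FPKM to 38.4 ± 17.4 FPKM (limma adjusted p = 0.00639). In the other season AURKA, CASP6 and HSPA8 also had an unadjusted limma p under 0.05 without passing the fold threshold. Their calls are therefore not read as particular to 1 season.

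The markers read beside the members were called between stages only, and between seasons hardly any gene was called. In both season comparisons, none of the 20 cumulus and granulosa cell markers, the 12 markers of other somatic cells and the 16 oocyte markers was called by limma. Of all genes, 0.0315% were called in GV and 0.042% in MII oocytes, so lists this short without a call say little about the markers. At an unadjusted limma p under 0.05 there were 2 oocyte markers in GV oocytes, and in MII oocytes 1 cumulus and 1 other somatic marker. The share of all genes under that p was not taken, so nothing is read from these counts. Between stages, 1 of the 20 cumulus markers was called in each season, against 11.8% of all genes in spring and 11.5% in summer. It was HAS2, the hyaluronan synthase of the expanding cumulus, higher in MII oocytes at 1.82 ± 1.07 FPKM against 0.297 ± 0.132 FPKM in spring (SD, n = 6, limma adjusted p = 0.00277) and 2.15 ± 1.09 FPKM against 0.486 ± 0.373 FPKM in summer (limma adjusted p = 0.00557). The spring call was lost with median-of-ratios scaling, without spring MII 6, and without the low-mapping libraries and spring GV 3 together, and the summer call was lost without any 1 of summer GV 3, summer GV 5, summer MII 4 and summer MII 6. Of the 16 oocyte markers, 6 were called in spring (4 higher) and 5 in summer (2 higher), among them ZP2, ZAR1 and BCAR4. Of all genes, 11.8% and 11.5% were called, but only 3665 of them had a mean of at least 1 FPKM. Changes of low genes are understated on log2(FPKM + 1), so the oocyte markers are not set against genes of like level. KRT19 was the only one of the 12 markers of other somatic cells that was called in either season.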

How the data were processed

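RNA was measured by Smart-seq2 and Nextera XT paired-end sequencing on a NextSeq 500. Per the labels and methods, the authors used STAR 2.5.3a to place trimmed reads on UMD3.1.1 and gave gene levels as FPKM. The deposited FPKM values held 11306 genes. Each column summed to 86768, and 0.01 had been added to every value. Multiplied by the gene's start-to-stop span, 98.2% of 236900 values were whole multiples of 1 step per library within 0.1 (20% would be by chance), which gave the recovered reads and their Poisson limits. The deposited values thus use the gene span and not exon length. Whether a step is a read or a fragment is not given in the sources used here, and strand handling is not either.

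The thresholds and filter of the study were kept (over 0.1 FPKM in at least 1 library, 9526 genes, unadjusted p under 0.05 and fold over 2), and limma 3.58.1 with a mean trend in R 4.3.3 was fitted on log2(FPKM + 1) for the 2 groups of each comparison, in place of the Partek test that the authors used, with Benjamini-Hochberg adjustment over all 9526 genes. Values were summarised in Python 3.11.15 with numpy 2.4.6, pandas 2.3.3 and scipy 1.17.1. Both steps were tested on simulated data. The members and lists were chosen with earlier results of these data known. The rule for other names was the 5 genes with the highest r to each member, the 3 genes of highest mean FPKM in each list (a rank that the gene span also sets), and of each list up to 5 called genes of smallest p per stage comparison, and some genes that it names are not reported here. Where same-numbered libraries were compared, their deviations correlated at over 0.1 in 1, 4, 3 and 4 of 6 pairs in the 4 comparisons. The highest correlations were 0.46, 0.79, 0.60 and 0.67 and the lowest -0.35, -0.47, -0.21 and -0.26. A library matched its own number best in 0, 4, 2 and 3 of 6. The labels do not say what a number stands for, and the numbers were not taken as pairs. The standard errors and p-values thus treat all libraries as independent, which was not settled. The p-values set each difference of group means against the spread between these libraries, as moderated by limma. RefSeq (ARS-UCD2.0) served for names and gene order only and matched 10791 rows.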

Additional observations from a re-analysis of the deposited data

Results flagged for a closer look

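Within a group of 6, a library was marked where the gap between the highest (or lowest) value and its neighbour, divided by the group's range on the log2(FPKM + 1) scale, passed Dixon's critical value of 0.625. The 3 genes were chosen because some libraries stood apart in them, so the ratios are a description of 12 groups (3 genes in 4 groups) and not a test, and the usual chance rate of about 1 in 20 groups does not apply to them. KRT18 was marked in spring GV 6 (0.823), in summer GV 2 (0.828) and in spring MII 6 (0.792), each the highest library of its group. VIM was marked in spring GV 3 (0.748) and in summer GV 2 (0.803). The second of these rests on 35 VIM reads and a level of 1.09 FPKM. KRT8 was marked in no group, and its largest ratio was 0.553, for spring GV 6. In summer MII oocytes KRT18 was not marked, since 2 of the 6 libraries were high there.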

How the results depend on the processing

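Season counts over all genes changed with most choices. In GV oocytes the 3 calls became 37 with a pseudocount of 0.1, 6 with quantile normalization or median-of-ratios scaling, 0 at an adjusted p under 0.05, 75 on recovered reads as RPM, 5 without the low-mapping libraries and spring GV 3, and 3 to 13 with 1 library left out (most without spring GV 6). In MII oocytes the 4 calls became 23, 0 with median-of-ratios scaling, 9 without the low-mapping libraries, 0 at an adjusted p under 0.05, 38 as RPM and 2 to 16 with 1 library left out (fewest without spring MII 1, most without summer MII 1). No filament pathway gene was called in a season comparison under any alternative run.

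Stage counts rose with a pseudocount of 0.1 (2628 in spring and 2521 in summer), at an adjusted p under 0.05 with no fold threshold (2304 and 2929) and as RPM (3405 and 3294). The pathway count in spring became 17 with a pseudocount of 0.1 and 7 to 14 with 1 library left out (fewest without spring GV 2, most without spring GV 6), and in summer 8 to 11.

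Cumulus marker calls were few and unstable. In spring the 1 call became 5 with a pseudocount of 0.1, 0 with median-of-ratios scaling, 2 with the replicate block, 3 as RPM, 0 without the low-mapping libraries and spring GV 3, and 0 to 2 with 1 library left out (0 without spring MII 6). In summer it became 4 with a pseudocount of 0.1, 2 with quantile normalization, 2 without the low-mapping libraries, 3 at an adjusted p under 0.05, 4 as RPM and 0 to 2 with 1 library left out (0 without summer GV 3 or 5, or without summer MII 4 or 6). In MII oocytes 1 was called between seasons as RPM. The replicate block moved no other listed count by over 1.5 times.

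The member differences stayed within 1 SD of their values under the alternatives run, except VIM in summer stages, -0.78 with a pseudocount of 0.1 and -1.11 as RPM. In spring stages VIM was -2.24 and -2.64 under these. Leave-one-out ranges were -0.79 to -0.05, -0.54 to -0.16, -0.29 to 0.45 and -0.04 to 0.37 for KRT8 (GV season, MII season, spring stage, summer stage). For KRT18 they were -1.32 to 0.69, -0.48 to 0.81, -1.09 to 1.05 and -0.12 to 1.05. For VIM they were -1.37 to -0.14, -0.05 to 0.05, -1.57 to -0.34 and -0.25 to -0.06. The causes were not tested. The 2 alternatives on recovered reads and on leaving out spring GV 3 were chosen after seeing the data. In VIM, 0 to 61 reads in 21 libraries limited what could be told apart.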
